A study of Mus musculus with 32 samples.

Results

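The germ cell genes *Dazl*, *Ddx4*, *Dnd1*, *Mael*, *Asz1*, *Taf7l* and *Sycp3* were followed through the exit of mouse embryonic stem cells (ESCs) from naive pluripotency. They were taken by name from the gene count table as germline genes, several of which are known to be controlled by promoter methylation, and made up 7 of 51826 genes. The choice was made with earlier results of these data known. Their calls, set beside the shares of all genes called, are therefore a description and not an independent test. The 11 conditions held 32 RNA-seq libraries of rRNA-depleted total RNA, all from the Rex1-GFPd2 reporter ESC line (RGd2) or from mutants made in it by CRISPR with a pair of gRNAs per gene.

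The parental RGd2 cells were cultured in 2i, that is N2B27 basal medium with the MEK inhibitor PD0325901 and the GSK3 inhibitor CHIR99021 (CH). They were also sampled after 5 passages in 2i (2i-p5), at 16 h and 72 h after transfer to N2B27 without inhibitors (N16h and N72h), and after 2 passages in CH alone (CHp2). *Rbpj*-KO and *Etv5*-KO lines were sampled in 2i and at N16h. ER-dKO lines, which lack *Etv5* and *Rbpj*, were sampled after 5 passages in CH (CHp5), and ETR-tKO lines, which lack *Etv5*, *Tcf3* (gene symbol *Tcf7l1*) and *Rbpj*, after 5 passages in N2B27 (Np5). There were 3 libraries per condition, and 2 for *Etv5*-KO at N16h. Of the RGd2 libraries of a condition, 1 came from a clonal subline. Within a condition each mutant library is a separate clonal line, but ETR-tKO replicates 14 and 15 descend from the same *Tcf3* mutant clone. The libraries in 2i and at N16h, of every genotype, came from cells that had been expanded in CH with the cytokine LIF and moved into 2i shortly before sampling, which the study does not mark for the other conditions. Comparisons of 2i-p5, N72h or CHp2 with 2i therefore also differ in this earlier culture, and its part cannot be told apart. In its GFP profiles the study counts N72h from the withdrawal of CH and LIF. N16h and N72h may therefore not belong to the same time course. ER-dKO and ETR-tKO differ from RGd2 2i-p5 in both genotype and medium, and these cannot be told apart. The RGd2 2i libraries are the control of several comparisons, which are therefore not independent.

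Libraries had 5986857 to 71439411 counts on genes. Counts were scaled on ERCC spike-in transcripts added to the RNA, so a normalised count is a count divided by a size factor from the spike-ins. FPKM is fragments per kilobase of gene, scaled to the total gene counts of the library. Log2 fold changes are given with their standard errors and with Benjamini-Hochberg adjusted p-values from edgeR's two-sided quasi-likelihood test over 18892 genes. A gene was called where the adjusted p was under 0.05 and the mean FPKM at least 1 in either group. Shares of all genes called are over the genes that reached this FPKM minimum, not over the 18892 tested. Counts of members and list genes are out of all those tested, some of which did not reach it. *Taf7l* did not reach it in RGd2 2i, 2i-p5, *Rbpj*-KO 2i, *Etv5*-KO 2i, ER-dKO or ETR-tKO, so it could not be called between these. In bulk RNA, fewer cells expressing a gene and less RNA per cell cannot be told apart.

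Germline genes of this kind are silent or weakly expressed in most somatic tissues, and their CpG-rich promoters become methylated in the embryo around implantation. Naive ESCs kept in 2i have little DNA methylation, and the methyltransferases rise when the cells leave this state. The cells of the 2i libraries here had been in 2i only shortly, and their methylation is not known. In ESCs a variant Polycomb complex, PRC1.6, also holds many germline genes in check through E2F6 with DP1 and through MGA with MAX, which bind E2F-type sites and E-boxes.

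In the deposited annotation (GRCm38, Gencode M14) *Dazl* (ENSMUSG00000010592.8) spans chr17:50279394-50293599, *Ddx4* (ENSMUSG00000021758.13) chr13:112598333-112652310, *Mael* (ENSMUSG00000040629.8) chr1:166201201-166238747, *Asz1* (ENSMUSG00000010796.11) chr6:18050964-18109061 and *Taf7l* (ENSMUSG00000009596.9) chrX:134460118-134476490, all on the minus strand. *Sycp3* (ENSMUSG00000020059.9) spans chr10:88459569-88473236 on the plus strand. Reads were counted over the exons of each gene. Promoter sequences are shown because the group is known for CpG-rich promoters with PRC1.6 sites. The 250 bases before the start of 6 genes were read from RefSeq (GRCm38.p6). They lie at chr17:50293621-50293870 (Dazl, minus strand), chr13:112652311-112652560 (Ddx4, minus), chr1:166238745-166238994 (Mael, minus), chr6:18109062-18109311 (Asz1, minus), chrX:134476491-134476740 (Taf7l, minus) and chr10:88459337-88459586 (Sycp3, plus). For *Dazl*, *Mael* and *Sycp3* the RefSeq start differs from that of the Gencode gene. The promoter of *Dnd1* was not analysed here. Written 5′ to 3′ on the strand of the gene, capitals mark CACGTG (the E-box of MAX partners, the same on both strands) and GCGGGA (an E2F-type core, as TCCCGC when on the other strand).
Ddx4: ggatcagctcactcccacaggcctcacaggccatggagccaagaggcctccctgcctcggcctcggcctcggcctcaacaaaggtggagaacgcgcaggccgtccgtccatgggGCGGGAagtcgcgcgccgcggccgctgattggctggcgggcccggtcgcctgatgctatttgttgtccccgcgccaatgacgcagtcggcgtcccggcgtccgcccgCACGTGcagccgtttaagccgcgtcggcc
Mael: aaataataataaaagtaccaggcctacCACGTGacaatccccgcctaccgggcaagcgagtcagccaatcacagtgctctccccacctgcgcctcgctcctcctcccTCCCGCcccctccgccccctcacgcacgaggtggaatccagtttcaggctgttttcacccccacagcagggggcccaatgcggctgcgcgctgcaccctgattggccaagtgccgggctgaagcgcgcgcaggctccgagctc
Sycp3: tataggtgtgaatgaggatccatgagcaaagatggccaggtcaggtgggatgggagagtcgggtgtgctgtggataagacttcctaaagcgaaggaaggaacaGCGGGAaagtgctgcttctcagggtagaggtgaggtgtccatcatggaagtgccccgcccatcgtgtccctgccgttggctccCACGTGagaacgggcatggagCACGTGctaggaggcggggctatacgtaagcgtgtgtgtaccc
Taf7l: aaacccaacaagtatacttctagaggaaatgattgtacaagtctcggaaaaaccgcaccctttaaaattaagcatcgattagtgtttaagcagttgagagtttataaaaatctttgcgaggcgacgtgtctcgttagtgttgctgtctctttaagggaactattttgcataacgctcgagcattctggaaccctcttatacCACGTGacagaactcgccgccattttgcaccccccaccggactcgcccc
Dazl: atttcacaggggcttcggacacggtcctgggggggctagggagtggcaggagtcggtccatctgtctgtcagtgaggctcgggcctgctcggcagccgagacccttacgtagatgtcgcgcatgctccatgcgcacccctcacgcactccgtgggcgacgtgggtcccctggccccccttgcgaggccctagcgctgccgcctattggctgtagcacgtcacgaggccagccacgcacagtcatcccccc
Asz1: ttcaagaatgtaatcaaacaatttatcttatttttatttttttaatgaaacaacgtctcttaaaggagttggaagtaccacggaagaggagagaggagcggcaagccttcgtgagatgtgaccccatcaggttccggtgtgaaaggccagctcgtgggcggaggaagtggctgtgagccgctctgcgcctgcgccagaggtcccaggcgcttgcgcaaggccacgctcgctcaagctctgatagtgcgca
CACGTG was found in 4 of 6 windows, once each in *Ddx4*, *Mael* and *Taf7l* and at 2 places in *Sycp3*, and in 6.02% of all 32851 RefSeq windows of this length. GCGGGA was found in *Ddx4*, *Mael* and *Sycp3*, 3 of 6, and in 16.9% of windows. No match of one motif overlapped a match of the other. The windows held 31 CpGs in *Ddx4*, 20 in *Dazl*, 18 in *Mael*, 15 in *Asz1*, 14 in *Taf7l* and 12 in *Sycp3*, where the median window held 6. Both motifs contain a CpG, and the shares over all windows were not matched for CpG content, so they do not show an enrichment beyond it. Methylation itself was not measured in these libraries.

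**Figure D1:**
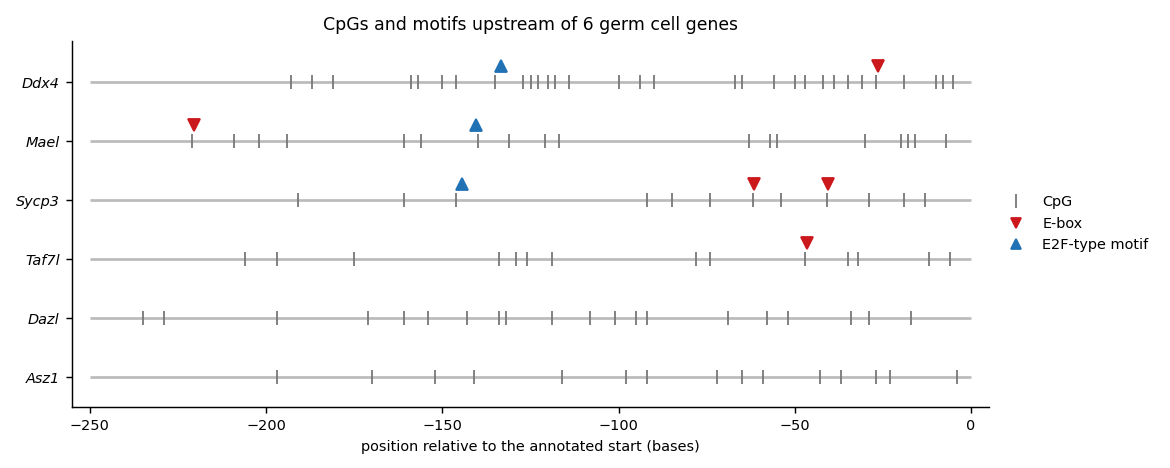
Positions of CpG dinucleotides (grey ticks), E-boxes (red triangles, CACGTG) and E2F-type motifs (blue triangles, GCGGGA or its reverse complement) in the 250 bases before the annotated start of 6 germ cell genes, in bases from the start. *Ddx4*, *Mael* and *Sycp3* hold both motifs, *Taf7l* holds only an E-box, and *Dazl* and *Asz1* hold neither.

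Compared per gene length, the genes were weakly to moderately expressed in RGd2 cells in 2i. Their mean FPKM there was 6.60 ± 2.24 for *Dazl*, 5.68 ± 2.16 for *Dnd1* (ENSMUSG00000044595.10), 2.96 ± 0.477 for *Mael*, 2.77 ± 0.157 for *Ddx4*, 2.35 ± 0.784 for *Sycp3* and 0.678 ± 0.173 for *Taf7l* (SD, n = 3). *Asz1*, an ankyrin-repeat protein of the germ granule, was at 0.0616 ± 0.00608 (SD, n = 3). The highest mean FPKM was reached at N72h by *Sycp3* (41.7 ± 3.17), *Mael* (22.5 ± 2.5) and *Ddx4* (9.02 ± 0.480), in CHp2 by *Dnd1* (10.4 ± 1.38) and *Taf7l* (6.17 ± 0.691), and in *Rbpj*-KO at N16h by *Dazl* (8.67 ± 0.622), all as SD with n = 3. So the order of the genes in 2i was not their order after exit. *Asz1* had 72 counts in all libraries together, from 0 to 12 per library, and 0 in 12 of 32 libraries. Its normalised counts were 4.04 to 5.37 in RGd2 2i and 0 to 9.67 in ETR-tKO. It failed the low-count filter and was not tested.

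**Figure D2:**
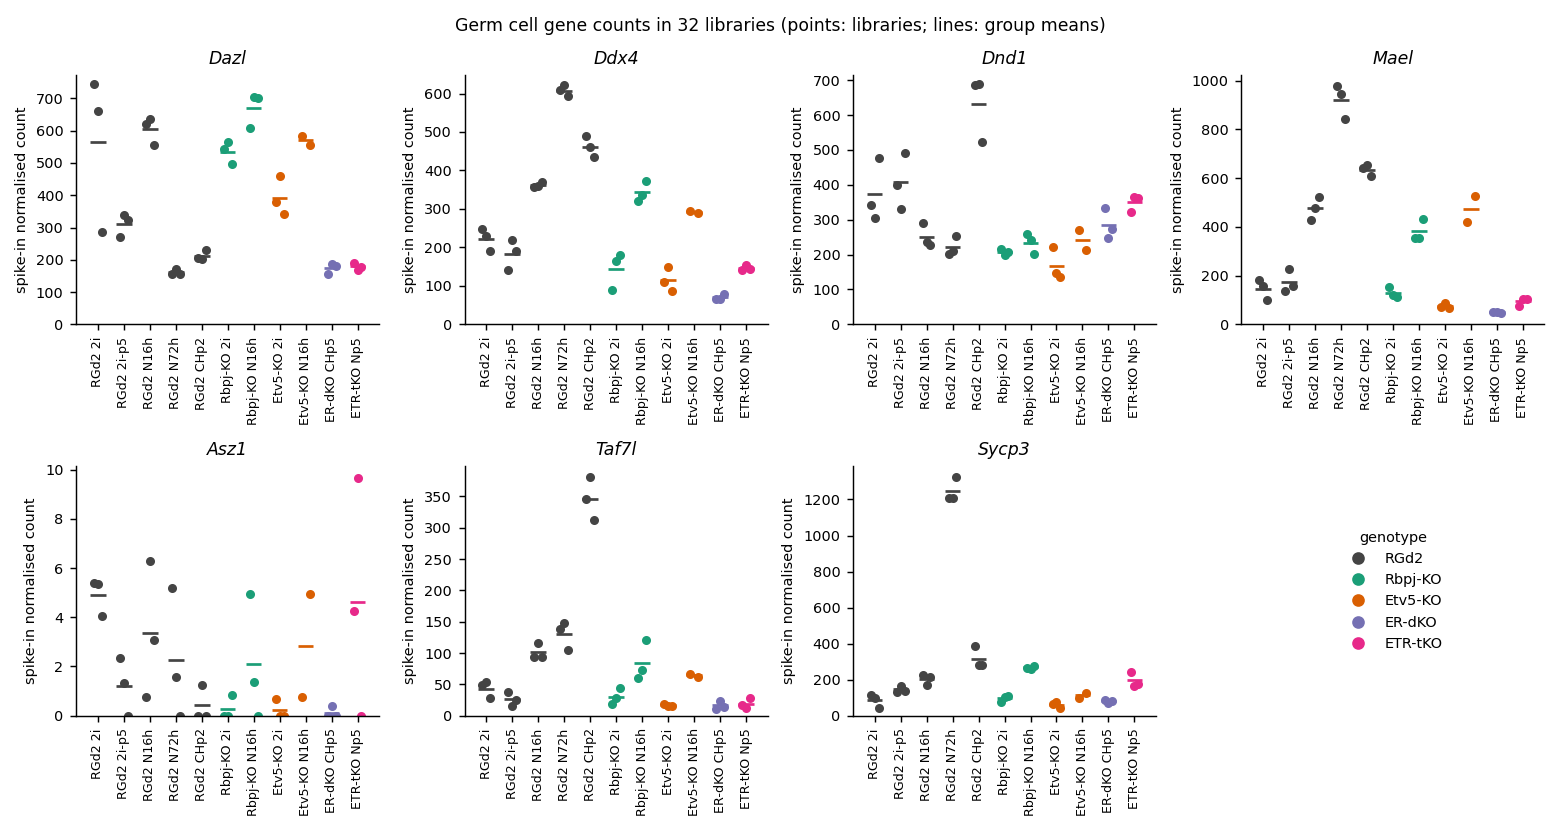
Spike-in normalised counts of the 7 germ cell genes in each of 32 libraries (points) of 11 conditions, with group means (lines), coloured by genotype. *Ddx4*, *Mael* and *Sycp3* are highest in RGd2 at N72h, *Taf7l* and *Dnd1* in RGd2 CHp2, and *Dazl* is lowest in RGd2 at N72h. *Asz1* stays below 10 normalised counts.

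The order of the 11 conditions by mean normalised count differed between genes (SD, n = 3, and n = 2 for *Etv5*-KO at N16h). *Ddx4* ran from 607.7 ± 14.4 in RGd2 N72h through 462.2 ± 27.0 in CHp2, 362.9 ± 6.61 at N16h, 343.5 ± 26.6 in *Rbpj*-KO N16h and 291.7 ± 4.18 in *Etv5*-KO N16h down to 70.9 ± 8.09 in ER-dKO. Its neighbours from RGd2 2i down to *Etv5*-KO 2i overlapped in their ranges. *Mael* had the same top of the order (921.7 ± 71.6, 635.1 ± 23.8 and 476.4 ± 46.5), with *Etv5*-KO N16h (473.4 ± 73.5) and *Rbpj*-KO N16h (381.3 ± 45.2) next, then a gap to RGd2 2i-p5 at 174.1 ± 47.4, and ER-dKO last at 49.8 ± 3.82. *Sycp3* stood at 1245 ± 67.2 in RGd2 N72h, with the next condition, CHp2, at 317.3 ± 62.4 and *Rbpj*-KO N16h at 268.1 ± 7.82, all without overlap, and its lowest mean was 61.5 ± 18.3 in *Etv5*-KO 2i. *Taf7l* stood at 346.4 ± 34.2 in CHp2, and N72h (130.4 ± 22.7), N16h (mean 101.5), *Rbpj*-KO N16h (84.5 ± 31.9) and *Etv5*-KO N16h (64.6 ± 3.68) overlapped from neighbour to neighbour. *Dazl* was highest in *Rbpj*-KO N16h (671.4 ± 54.8), and the 5 highest conditions overlapped from neighbour to neighbour down to *Rbpj*-KO 2i (534.9 ± 34.8). Its 3 lowest, ETR-tKO (179.8 ± 10.4), ER-dKO (174.5 ± 17.3) and RGd2 N72h (160.7 ± 9.61), overlapped as well. *Dnd1* stood apart only in CHp2 (631.6 ± 95.5), and the other 10 conditions overlapped from neighbour to neighbour, from 408.1 ± 80.8 in 2i-p5 to 168.5 ± 47.5 in *Etv5*-KO 2i.

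The first question was what happens to these genes when RGd2 cells lose the inhibitors. Against 2i, *Mael*, *Sycp3*, *Ddx4* and *Taf7l* were higher at both N16h and N72h. *Dazl* did not pass the test at N16h and was lower at N72h, and *Dnd1* was lower at both times. At N16h, 4 of the 6 tested genes were called higher and 1 lower, where 8.63% of 11748 genes were called higher and 37.4% lower. At N72h, 4 of 6 were called higher and 2 lower, where 21.4% of 12370 genes were called higher and 44.6% lower. With the spike-in scaling the median gene was at −0.23 at N16h and −0.25 at N72h on the log2 scale. With TMM scaling, which sets the bulk of genes to no change, 22.4% of genes were called higher and 23.8% lower at N16h, and 32.8% higher and 34.1% lower at N72h. The calls of the 6 genes were the same with TMM, except that of *Dnd1* at N16h.

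*Ddx4* encodes the Vasa RNA helicase of the germ granule. Its normalised counts were 247.2, 229.9 and 189.8 in the RGd2 2i libraries, 357.9, 360.4 and 370.4 at N16h, and 608.7, 621.5 and 592.8 at N72h. The 3 conditions did not overlap, with N16h above 2i and N72h above N16h. The log2 fold change against 2i was 0.68 (SE 0.17, adjusted p = 0.00176) at N16h and 1.42 (SE 0.17, adjusted p = 4.70e-09) at N72h.

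*Mael* encodes Maelstrom, which is needed for piRNA-guided silencing of transposons. It had 181.8, 157.4 and 100.9 normalised counts in 2i, 428.9, 478.4 and 521.9 at N16h, and 978.9, 944.7 and 841.3 at N72h. Again no condition overlapped another. The rise was 1.61 (SE 0.17, adjusted p = 3.54e-10) on the log2 scale at N16h and 2.57 (SE 0.17, adjusted p = 3.94e-16), or 5.92-fold, at N72h.

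*Sycp3* encodes a protein of the meiotic chromosome axis. Its normalised counts were 113.7, 100.8 and 44.4 in 2i, 227.0, 170.3 and 213.9 at N16h, and 1207, 1206 and 1323 at N72h. The N72h libraries stood above all other libraries of the series. The log2 fold change was 1.08 (SE 0.21, adjusted p = 5.65e-05) at N16h and 3.70 (SE 0.21, adjusted p = 2.83e-18), or 13-fold, at N72h, the steepest among the 6 tested genes. On the opposite strand, *Sycp3* shares 660 exonic bases with *Chpt1*. *Dnd1* likewise shares exonic bases with *Wdr55*, which had 47821 counts over all libraries against 10120 for *Dnd1*. The counting used strand.

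*Taf7l* encodes a germ cell relative of the TFIID subunit TAF7. It had 48.4, 53.5 and 28.3 normalised counts in 2i, 93.9, 116.5 and 94.1 at N16h, and 137.9, 148.3 and 104.8 at N72h. The N16h and N72h values overlapped each other but not those in 2i. Its log2 fold change was 1.12 (SE 0.29, adjusted p = 0.00195) at N16h and 1.46 (SE 0.29, adjusted p = 4.46e-05) at N72h. *Taf7*, the gene it is related to, had a mean FPKM between 42.2 and 51.5 in every condition.

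*Dazl* encodes an RNA-binding protein that promotes translation in germ cells. Its normalised counts were 744.3, 660.8 and 286.7 in 2i, 622.0, 637.2 and 555.6 at N16h, and 155.5, 171.8 and 154.7 at N72h. The lowest 2i value is that of replicate 33, the clonal subline and the shallowest library. At N16h the log2 fold change was 0.04 (SE 0.16, 95% CI −0.28 to 0.36, adjusted p = 0.879), and without replicate 33 it was −0.21. At N72h every library lay below every 2i library, and *Dazl* fell by 1.88 (SE 0.18, adjusted p = 9.33e-12) on the log2 scale.

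*Dnd1* encodes an RNA-binding protein needed for the survival of primordial germ cells. It had 343.0, 304.8 and 476.4 normalised counts in 2i, 290.6, 236.6 and 228.2 at N16h, and 202.2, 209.2 and 252.8 at N72h. Both later conditions lay below 2i without overlap, although the gap at N16h was small. *Dnd1* fell by 0.52 (SE 0.18, adjusted p = 0.0185) at N16h and by 0.70 (SE 0.18, adjusted p = 0.00117) at N72h on the log2 scale. The call at N16h was lost with TMM (−0.30, adjusted p = 0.222) and without RGd2 2i replicate 33 (−0.36, adjusted p = 0.0980) or N16h replicate 23 (adjusted p = 0.0692) or 24 (adjusted p = 0.0738).

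**Figure D3:**
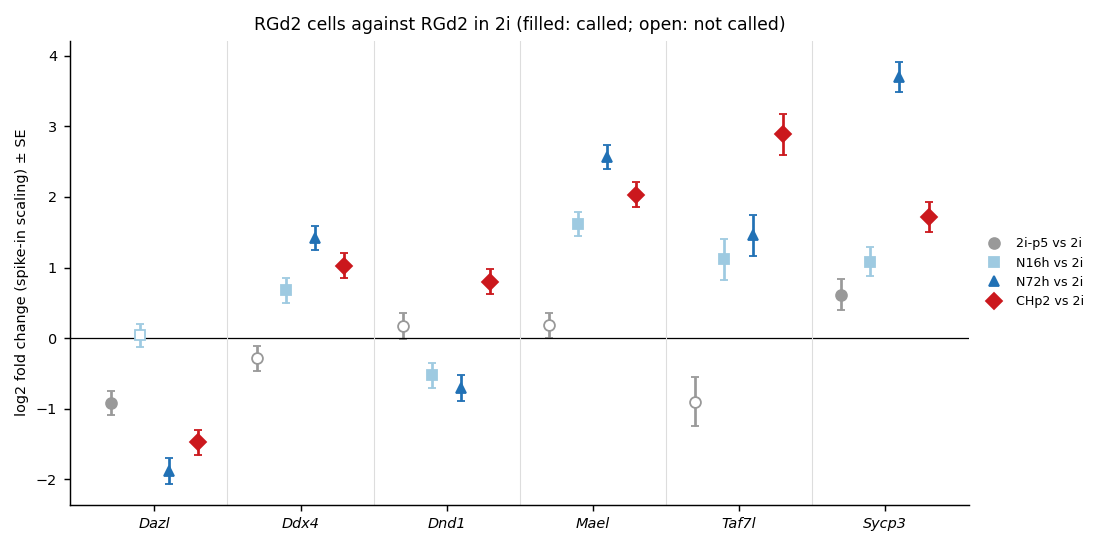
Log2 fold changes (points) with standard errors (bars) of 6 germ cell genes in RGd2 cells under 4 conditions, each against the same RGd2 libraries in 2i, with spike-in scaling. Filled symbols are called genes. *Mael*, *Sycp3*, *Ddx4* and *Taf7l* lie above 0 at N16h, N72h and CHp2, and *Dazl* lies below 0 at N72h and CHp2.

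RGd2 cells kept in CH alone for 2 passages also leave the naive state, under active GSK3 inhibition. The same 2i libraries served as control, so the values below are set side by side with those above and are not independent of them. In CHp2, 5 of 6 tested genes were called higher and 1 lower, where 16.7% of 12168 genes were called higher and 38.7% lower (24.8% and 31.2% with TMM, with the same calls of the 6 genes). *Taf7l* had 346.7, 380.5 and 312.0 normalised counts and a log2 fold change of 2.88 (SE 0.29, adjusted p = 8.89e-11), or 7.38-fold. *Mael* (640.3, 655.9 and 609.1 normalised counts) rose by 2.03 (SE 0.17, adjusted p = 9.67e-13), *Sycp3* (389.3, 280.4 and 282.1) by 1.72 (SE 0.21, adjusted p = 1.15e-08) and *Ddx4* (489.3, 461.9 and 435.3) by 1.02 (SE 0.18, adjusted p = 6.98e-06) on the log2 scale. *Dnd1*, which fell in N2B27, rose here by 0.80 (SE 0.18, adjusted p = 0.000294), with 685.0, 688.4 and 521.3 normalised counts against at most 476.4 in 2i. *Dazl* fell by 1.47 (SE 0.18, adjusted p = 9.83e-09), with 204.2, 202.8 and 229.8 normalised counts. None of the 6 genes in CHp2 overlapped its range in 2i.

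RGd2 cells after 5 passages in 2i were compared with those in 2i, which differ in their earlier culture in CH with LIF as well as in time in 2i. In 2i-p5 *Sycp3* was called higher (0.62, SE 0.22, adjusted p = 0.0251) and *Dazl* lower (−0.91, SE 0.17, adjusted p = 9.89e-05), where 2.89% of 11552 genes were called higher and 49.4% lower. *Sycp3* had 132.0, 167.0 and 138.8 normalised counts, all above the 2i libraries, and *Dazl* had 271.0, 337.9 and 321.7, which overlapped replicate 33 in 2i. The *Sycp3* call was lost without RGd2 2i replicate 33 (adjusted p = 0.0730) or 2i-p5 replicate 2 (adjusted p = 0.108). With TMM 4 genes were called: *Sycp3* (0.96), *Mael* (0.53) and *Dnd1* (0.52) higher and *Dazl* (−0.57) lower, where 13% of genes were called higher and 12.6% lower. Set against 2i-p5 in place of 2i, 4 genes were again called higher and 2 lower at N72h (34.2% and 22.9% of genes), and 5 higher and 1 lower in CHp2 (28.6% and 13.6%), with the same call for each of the 6 genes.

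Marker genes followed the culture conditions. The summed FPKM of 8 naive ESC markers (such as *Nanog*, *Klf4* and *Esrrb*) was 868.7 to 928.8 in RGd2 2i, 357.1 to 368.2 at N16h, 55.5 to 59.6 at N72h and 275.5 to 309.1 in CHp2, and that of 6 formative markers (such as *Fgf5*, *Otx2* and *Pou3f1*) rose from 42.9 to 50.1 in 2i to 510.5 to 524.4 at N72h. The summed FPKM of 6 primordial germ cell markers (*Prdm1*, *Tfap2c*, *Nanos3*, *Dppa3*, *Kit* and *Prdm14*), several of which naive ESCs also express, was 50.7 to 51.2 in 2i, 12.2 to 13 at N16h, 4.57 to 5.33 at N72h and 42.8 to 45.1 in CHp2, with none of the 6 at 0. At N72h 5 of these 6 were called lower and none higher by edgeR, so the germ cell genes that rose did so while these markers fell. *Prdm14* fell by 5.93 and *Nanos3* by 4.47 on the log2 scale. Summed over markers, primitive endoderm (6 genes) lay between 0.277 and 14.8 FPKM and trophoblast (5 genes) between 0.188 and 8.84 FPKM in all libraries. Within these ranges primitive endoderm was 0.539 to 2.36 in RGd2 2i and 4.77 to 14.8 at N72h. Trophoblast was 4.46 to 5.84 in 2i, 0.420 to 0.507 at N16h, 0.784 to 0.995 at N72h and 5.86 to 8.84 in CHp2. The 6 mesendoderm and neural markers went from 8.19 to 10.03 in 2i to 1.20 to 1.41 at N72h and 70.8 to 74.4 in CHp2.

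Other germ cell genes moved in both directions. For the lists that follow, the shares of all genes called higher and lower were 8.63% and 37.4% at N16h, 21.4% and 44.6% at N72h, and 16.7% and 38.7% in CHp2, and with TMM 22.4% and 23.8%, 32.8% and 34.1%, and 24.8% and 31.2%. Of 20 tested genes of the piRNA pathway and germ granule (the members left out), 3 were called higher and 2 lower at N16h (5 and 2 with TMM), 5 higher and 6 lower at N72h, and 6 higher and 5 lower in CHp2. In these comparisons 9, 12 and 12 of the 20 reached the FPKM minimum and could be called. Their median log2 fold changes were 0.11, 0.06 and 0.20, where all genes had medians of −0.23, −0.25 and −0.19. The Tudor genes *Tdrd5* (3.80) and *Tdrd1* (3.18) and the helicase gene *Mov10l1* (1.67) rose most at N72h among the called genes, which have a mean FPKM of at least 1, while *Tdrd12* (−2.74), *Fkbp6* (−2.40) and *Tex19.1* (−2.12) fell most among them. *Piwil2*, which encodes a PIWI protein, rose at N16h (1.87) and *Tex15* fell (−2.26).

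Of 25 tested meiosis genes, 9 were called higher and 1 lower at N16h, 8 higher and 2 lower at N72h, and 4 higher and 2 lower in CHp2 (7 and 2 with TMM), with medians of 0.66, 0.62 and 0.48. In these comparisons 12, 14 and 10 of the 25 reached the FPKM minimum. *Sycp2* (4.38), the partner of *Sycp3* in the chromosome axis, and the meiotic cohesin gene *Smc1b* (2.84) rose at N72h. *Stra8*, which is induced by retinoic acid at meiotic entry, rose at N16h (1.88) and fell at N72h (−7.39). The cohesin gene *Rec8* fell at N16h (−1.51) and rose in CHp2 (1.88). Of 7 tested RNA regulators, 2 were called higher and 2 lower at N16h (3 and 2 with TMM). At N72h 3 were higher and 2 lower, and in CHp2 3 were higher and none lower by edgeR. In these comparisons 5, 6 and 5 of the 7 reached the FPKM minimum. *Meioc* rose at N16h (1.66), N72h (1.52) and CHp2 (1.52), whereas *Nanos3* fell at N16h (−3.74) and N72h (−4.47).

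A list of 12 germline genes whose promoters are known to be methylated, which shares genes with the lists above, had 3 genes called higher and none lower by edgeR at N16h (5 higher with TMM), 3 higher and 5 lower at N72h, and 3 higher and 4 lower in CHp2. *Tdrd1*, *Mov10l1* and *Slc25a31* were the 3 called higher at N72h and in CHp2, and *Sohlh2* (−3.04) and *Fkbp6* (−2.40) fell most at N72h among its called genes. Its median was 0.68 at N16h, −0.48 at N72h and 0.03 in CHp2. In these comparisons 7, 9 and 9 of the 12 reached the FPKM minimum.

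Transcripts of the silencing machinery were followed in the same samples, with the shares of all genes given above. *Dnmt3b*, a de novo methyltransferase, rose by 1.28 at N16h, 3.42 at N72h and 1.34 in CHp2, and its mean FPKM went from 35.0 in 2i to 444.6 at N72h. Against 2i, *Dnmt3l* was higher at N16h (2.82) and lower at N72h (−1.06), and the demethylating enzyme *Tet2* was lower at N72h (−3.75). Of the 12 PRC1.6 genes tested, 1 was called lower and none higher by edgeR at N16h (3 higher and 1 lower with TMM), and 1 was called higher and 9 lower at N72h (2 and 8 with TMM). *Yaf2* rose at N72h (1.14), while *Rybp* (−1.01), *L3mbtl2* (−0.95) and *Max* (−0.95) fell most. In CHp2 2 PRC1.6 genes were called higher and 7 lower (2 and 5 with TMM). Of 8 DNA methylation enzymes, 4 were called higher and none lower by edgeR at N16h, 3 higher and 5 lower at N72h, and 2 higher and 4 lower in CHp2 (4 and 4 with TMM). Of 8 H3K9 methylation genes, 1 was called higher and 2 lower at N16h, 2 higher and 4 lower at N72h, and 1 higher and 4 lower in CHp2. With TMM these counts were 4 and 1, 3 and 3, and 3 and 4. The part of these transcripts in the levels of the germ cell genes was not tested.

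The single mutants were compared with RGd2 to see whether the germ cell genes depend on *Rbpj* or *Etv5*. The targeted genes were lower in the mutants: *Rbpj* had 976 to 1249 normalised counts in *Rbpj*-KO 2i against 3981 to 5097 in RGd2 2i, and *Etv5* had 2092 to 2384 in *Etv5*-KO 2i against 14120 to 16790. Reads from exons outside the deletions can still be counted. Markers of 2-cell-like cells (8 genes, such as *Zscan4c*) differed too, with a summed FPKM of 3.10 to 17.6 in RGd2 2i and 2.63 to 22.8 at N16h, but 0.164 to 0.838 in *Rbpj*-KO and 0.421 to 0.760 in *Etv5*-KO over both conditions. At most 4 of these 8 markers (in *Rbpj*-KO 2i) were at 0 in all libraries of a mutant condition. Their part in the results was not tested.

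In 2i, *Etv5*-KO cells had less of these transcripts: 5 genes were called lower (*Mael*, *Ddx4*, *Dnd1*, *Sycp3* and *Dazl*) and none higher, where edgeR called 27.9% of 11569 genes lower and 6.14% higher. *Mael* had 72.5, 86.1 and 66.8 normalised counts, below every RGd2 2i library, and a log2 fold change of −1.05 (SE 0.18, adjusted p = 2.46e-05). *Ddx4* had 109.4, 148.6 and 85.8, also below RGd2 without overlap (−0.997, SE 0.18, adjusted p = 4.66e-05), and *Dnd1* had 222.9, 146.9 and 135.6 (−1.10, SE 0.18, adjusted p = 1.08e-05). These 3 were called under both scalings, with TMM values of −0.80, −0.76 and −0.87, where 12.9% of genes were called lower and 19.9% higher with TMM. *Sycp3* (−0.65, SE 0.22, adjusted p = 0.0259) and *Dazl* (−0.59, SE 0.17, adjusted p = 0.00713) overlapped RGd2 and lost their calls with TMM (adjusted p = 0.152 and 0.0815). Without RGd2 2i replicate 31 or 32, or without *Etv5*-KO 2i replicate 27, 3 genes were called instead of 5. *Taf7l* had 18.8, 16.0 and 15.8 normalised counts and a log2 fold change of −1.47 (SE 0.33, adjusted p = 0.000764), but its mean FPKM was under 1 in both groups.

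In *Rbpj*-KO cells in 2i, *Ddx4* (−0.60, SE 0.18, adjusted p = 0.0277) and *Dnd1* (−0.81, SE 0.19, adjusted p = 0.00224) were called lower and none was higher, where edgeR called 6.12% of 11546 genes lower and 5.24% higher (7.17% and 10.8% with TMM, which called the same members). *Dnd1* had 216.7, 198.8 and 207.6 normalised counts, well below the RGd2 range. *Ddx4* had 88.4, 164.8 and 181.6, so that its highest value lay just under the lowest in RGd2. The *Ddx4* call was lost without RGd2 2i replicate 31 (adjusted p = 0.110) or 32 (adjusted p = 0.0783) or *Rbpj*-KO 2i replicate 28 (adjusted p = 0.183), leaving 1 gene called. *Mael* (−0.31, 95% CI −0.67 to 0.05), *Sycp3* (0.08, −0.36 to 0.51) and *Dazl* (−0.14, −0.47 to 0.19) did not pass the test. Without RGd2 2i replicate 33, *Dazl* was called lower (−0.39, adjusted p = 0.0303).

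The mutants were compared with RGd2 at N16h as well. In *Rbpj*-KO 0 of 6 genes were called by edgeR or DESeq2, where 18.8% of 11717 genes were called higher and 3.41% lower by edgeR, and 20.2% and 3.53% by DESeq2. The unadjusted p was under 0.05 for 2 of 6 genes (*Mael*, *Sycp3*). *Mael* had 355.1, 355.3 and 433.5 normalised counts against 428.9 to 521.9 in RGd2 (−0.32, SE 0.16, adjusted p = 0.168), and was called lower with TMM (−0.48, adjusted p = 0.00731), where 11.6% of genes were called lower and 13.7% higher. In *Etv5*-KO 1 gene, *Sycp3*, was called lower, with 96.9 and 127.5 normalised counts against 170.3 to 227.0 in RGd2 (−0.85, SE 0.22, adjusted p = 0.00344), where 3.24% of 11735 genes were called lower and 29.3% higher. The call was lost when replicate 17 was left out (adjusted p = 0.0921), which leaves 1 *Etv5*-KO library. With TMM, where 12.2% of genes were called lower and 15.9% higher, *Ddx4* (−0.55, adjusted p = 0.0153) and *Taf7l* (−0.89, adjusted p = 0.0292) were called lower as well. *Mael* (−0.01, 95% CI −0.34 to 0.33) and *Dazl* (−0.09, −0.44 to 0.27) did not pass the test.

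**Figure D4:**
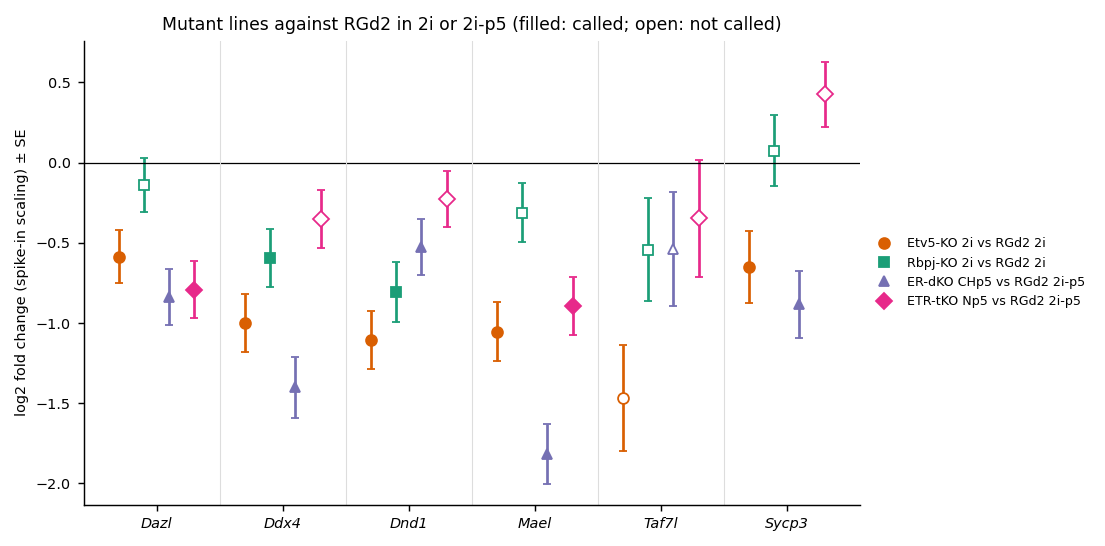
Log2 fold changes (points) with standard errors (bars) of 6 germ cell genes in mutant lines against RGd2 in 2i (*Etv5*-KO and *Rbpj*-KO) or against RGd2 in 2i-p5 (ER-dKO and ETR-tKO), with spike-in scaling. Filled symbols are called genes. The values of *Etv5*-KO and ER-dKO are all below 0, from −0.53 to −1.82.

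Each genotype was also compared with itself in 2i. *Mael*, *Ddx4*, *Taf7l* and *Sycp3* rose at N16h in all 3 genotypes under both spike-in and TMM scaling. In *Rbpj*-KO these 4 were called higher and none lower (11.6% of 11776 genes higher by edgeR, 16.3% lower), with log2 fold changes of 1.61 for *Mael*, 1.41 for *Sycp3*, 1.38 for *Taf7l* and 1.19 for *Ddx4*. In *Etv5*-KO all 6 tested genes were called higher (31.3% of 11832 genes higher, 9.47% lower). *Mael* went from 72.5, 86.1 and 66.8 normalised counts in 2i to 421.4 and 525.4 at N16h, a log2 fold change of 2.66 (SE 0.18, adjusted p = 4.03e-15). *Taf7l* rose by 1.93 (SE 0.33, adjusted p = 1.17e-05), *Ddx4* by 1.36 (SE 0.19, adjusted p = 2.19e-07) and *Sycp3* by 0.88 (SE 0.23, adjusted p = 0.00249) on the log2 scale. *Dazl* (0.54) and *Dnd1* (0.52) lost their calls with TMM (0.29 and 0.28), where 19.3% of genes were called higher and 25% lower. Both calls were also lost without *Etv5*-KO 2i replicate 27 (adjusted p = 0.0935 and 0.194), and that of *Dnd1* without 2i replicate 26 (adjusted p = 0.135). *Dnd1* overlapped between the groups. Without *Etv5*-KO N16h replicate 17, 3 genes were called, since *Dazl* and *Dnd1* lost their calls and *Taf7l* fell under an FPKM of 1. *Sycp3* lost its call without N16h replicate 18 (adjusted p = 0.105). The clonal line as a replicate block changed none of these calls of the 6 genes.

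The difference between the mutant and the RGd2 response was tested itself. For *Rbpj*-KO 0 of 6 genes differed by edgeR or DESeq2, where edgeR called 3.79% of 12162 genes higher and 0.238% lower (2.29% and 1.3% with TMM, 5.33% and 0.337% with DESeq2), and the unadjusted p was under 0.05 for 2 of 6 genes (*Ddx4*, *Dnd1*). Without RGd2 2i replicate 33, *Dazl* was called (0.54, adjusted p = 0.0401). For *Etv5*-KO the difference from RGd2 was called higher by edgeR for *Mael* (1.05, SE 0.25, adjusted p = 0.00195), *Dnd1* (1.04, SE 0.27, adjusted p = 0.00358) and *Ddx4* (0.68, SE 0.26, adjusted p = 0.0433). For *Dnd1* this was a change of sign, from −0.52 in RGd2 to 0.52 in *Etv5*-KO. Of 12246 genes, 36.7% were called higher and 0.531% lower, so these calls do not set the germ cell genes apart. The median over all genes tested was itself 0.47. The *Ddx4* call was lost in 9 of the 11 fits that left out 1 library, and *Dazl* was called (0.75, adjusted p = 0.00111) without RGd2 2i replicate 33. With TMM the differences were 0.55, 0.58 and 0.21 and 0 of 6 were called by edgeR (7.78% of genes higher, 5.3% lower).

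**Figure D5:**
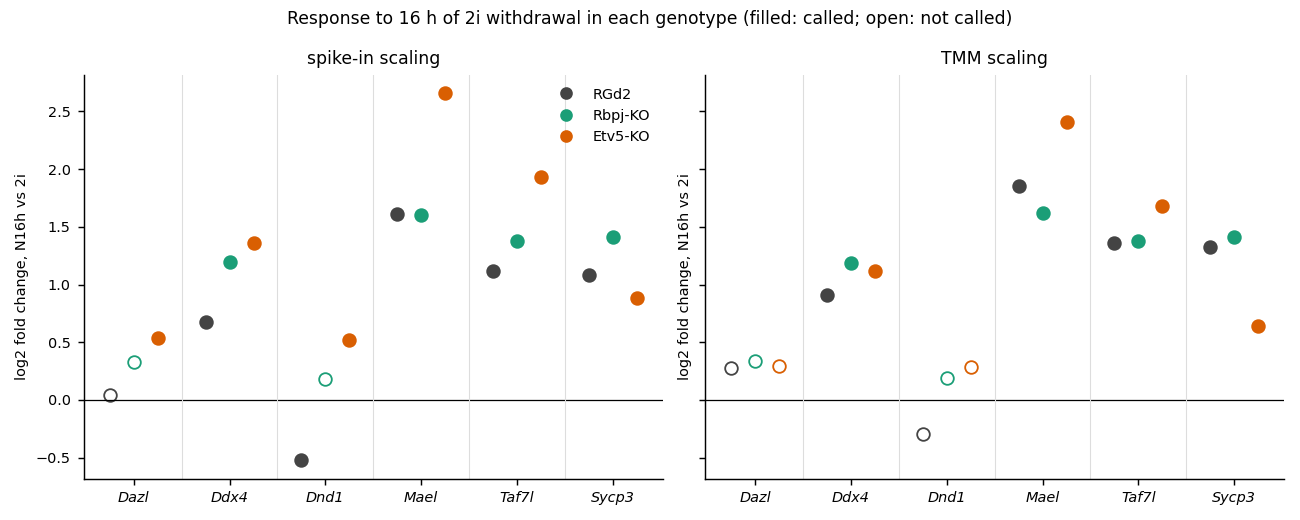
Log2 fold changes at N16h against 2i of 6 germ cell genes in RGd2, *Rbpj*-KO and *Etv5*-KO cells with spike-in scaling (left) and TMM scaling (right); filled symbols are called genes. *Mael*, *Ddx4*, *Taf7l* and *Sycp3* lie above 0 in every genotype in both panels, and *Mael* in *Etv5*-KO is highest, at 2.66 and 2.41.

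The combined mutants were kept for 5 passages in media in which RGd2 cells leave the naive state, so they were set against naive RGd2 cells in 2i-p5 and against RGd2 cells that had exited in the same medium. *Etv5* had 1397 to 1954 normalised counts in ER-dKO and 1112 to 2547 in ETR-tKO, against 10340 to 11870 in RGd2 2i-p5, and *Tcf7l1* had 29.1 to 120.4 in ETR-tKO against 462.6 to 591.6. *Rbpj* was lower in ETR-tKO (1559 to 2348 against 2830 to 3385) and in ER-dKO replicates 10 and 11 (1138 and 1307), but the library labelled ER-dKO replicate 12 had 3489, above the RGd2 2i-p5 range. The counts do not show whether its protein is made. Results for ER-dKO below include this library, and those of the 6 tested genes are given without it where a call changes. List counts, marker sums and correlations are given only with it. Both mutants had naive marker sums of 763.7 to 825.4 FPKM, against 732.7 to 781.1 in RGd2 2i-p5, and 2-cell-like marker sums of at most 0.0727 against 5.70 to 6.99.

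ER-dKO cells in CH had lower germ cell gene counts than RGd2 cells in 2i-p5. They had 5 genes called lower and none higher, where edgeR called 8.43% of 11562 genes lower and 33.9% higher (17.5% and 24.7% with TMM, which called the same members). The RGd2 2i-p5 libraries are also the control of ETR-tKO. *Mael* had 52.3, 51.6 and 45.4 normalised counts against 136.7, 227.4 and 158.3, a log2 fold change of −1.82 (SE 0.19, adjusted p = 3.51e-10). *Ddx4* had 67.0, 65.5 and 80.2 against 141.4, 218.2 and 190.2 (−1.40, SE 0.19, adjusted p = 1.41e-07). *Sycp3* (−0.88, SE 0.21, adjusted p = 0.00104) and *Dazl* (−0.84, SE 0.18, adjusted p = 0.000259) also fell without overlap. *Dnd1* overlapped between the groups (−0.53, SE 0.17, adjusted p = 0.0176), and lost its call without RGd2 2i-p5 replicate 3 (adjusted p = 0.182), ER-dKO replicate 11 (adjusted p = 0.0971) or the library labelled ER-dKO replicate 12 (adjusted p = 0.0552). *Taf7l* was under an FPKM of 1 in both groups.

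In ETR-tKO cells in N2B27, *Mael* (76.5, 105.3 and 105.1 normalised counts, −0.90, SE 0.18, adjusted p = 0.000111) and *Dazl* (190.6, 169.8 and 179.1, −0.79, SE 0.18, adjusted p = 0.000449) were called lower than in 2i-p5 and none was higher by edgeR, where 9.53% of 11814 genes were called lower and 37.7% higher. *Ddx4* (−0.35, 95% CI −0.71 to 0.0024) and *Sycp3* (0.43, 0.03 to 0.82, adjusted p = 0.0903) did not pass the test. With TMM, where 23.5% of genes were called lower and 25.4% higher, *Ddx4* (−0.57) and *Dnd1* (−0.45) were called lower too. Without RGd2 2i-p5 replicate 1, *Ddx4* was called with the spike-ins (adjusted p = 0.0495). Compared directly, ETR-tKO had more than ER-dKO of *Sycp3* (1.31, SE 0.20, adjusted p = 1.87e-06), *Ddx4* (1.05, SE 0.18, adjusted p = 2.29e-05) and *Mael* (0.92, SE 0.19, adjusted p = 0.000214), 3 of 6 genes, where 14.6% of 11632 genes were called higher and 9.9% lower (16.1% and 20.6% with TMM, which called the same members). *Sycp3* had 244.6, 166.6 and 176.7 normalised counts in ETR-tKO and 87.1, 69.2 and 84.2 in ER-dKO. *Dazl* differed by 0.04 (95% CI −0.30 to 0.39). *Taf7l* was under an FPKM of 1 in both mutants and could not be called.

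The combined mutants were also compared with RGd2 cells in the same medium. ER-dKO CHp5 had 5 genes called lower than RGd2 CHp2 and none higher (21.3% of 12083 genes lower, 28.3% higher by edgeR). *Taf7l* had 11.4, 23.6 and 14.6 normalised counts against 346.7, 380.5 and 312.0 and was 20.0-fold lower (−4.32, SE 0.30, adjusted p = 2.95e-15), *Mael* was 12.7-fold lower (−3.66, SE 0.18, adjusted p = 1.41e-19) and *Ddx4* 6.56-fold lower (−2.71, SE 0.18, adjusted p = 1.20e-15). *Sycp3* (−1.99) and *Dnd1* (−1.15) were lower as well, whereas *Dazl* did not pass the test (−0.28, 95% CI −0.64 to 0.08). ETR-tKO Np5 had 4 genes called lower than RGd2 N72h (23.6% of 12338 genes) and *Dnd1* higher (35.5%). *Mael* was 9.71-fold lower (−3.28, SE 0.17, adjusted p = 3.37e-19), *Taf7l* 6.53-fold (−2.71, SE 0.30), *Sycp3* 6.31-fold (−2.66, SE 0.19) and *Ddx4* 4.17-fold (−2.06, SE 0.17). *Dnd1* was higher (0.65, SE 0.18, adjusted p = 0.00214), and *Dazl*, which was low in both, differed by 0.17 (95% CI −0.18 to 0.53). Passage number differs between the groups of both comparisons.

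The other germ cell lists were counted in these comparisons too, and they did not all move one way. Of all genes at the FPKM minimum, 28.3% were called higher and 21.3% lower in ER-dKO against CHp2. In ETR-tKO against N72h these shares were 35.5% and 23.6%. Of 20 piRNA and germ granule genes, 9 were called lower and 1 higher in ER-dKO against CHp2, and 8 lower and 3 higher in ETR-tKO against N72h, with medians of −1.63 and −0.68 (all genes 0.02 and 0.11). In each comparison 12 of the 20 reached the FPKM minimum. Of 25 meiosis genes, of which 9 and 12 reached that minimum, 7 were lower and 1 higher, and 8 lower and 1 higher, with medians of −1.37 and −1.11. Of 7 RNA regulators, of which 5 and 6 reached it, none was higher by edgeR and 4 were lower in ER-dKO, and 2 were higher and 3 lower in ETR-tKO. Of the 12 genes with methylated promoters, 1 was higher and 7 lower, and 2 higher and 5 lower. Of the 6 primordial germ cell markers, 1 was higher and 4 lower in ER-dKO against CHp2 (median −0.46), whereas 5 were higher and none lower by edgeR in ETR-tKO against N72h (median 3.35). Among the called piRNA and meiosis genes, *Tdrd1* (−4.06), *Tdrd5* (−3.83) and *Stra8* (−6.46) had the largest falls in ER-dKO. The recombinase gene *Dmc1* was the meiosis gene called higher in both (1.28 and 0.78), and *Dnmt3b* was lower in both (−2.46 and −2.88).

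Across the 11 condition means, the genes fell into unlike patterns. The Pearson correlation of log2(FPKM + 0.1) was 0.98 between *Ddx4* and *Mael*, 0.91 between *Mael* and *Taf7l*, 0.90 between *Ddx4* and *Taf7l* and 0.82 between *Ddx4* and *Sycp3*, while *Dazl* had 0.14 with *Mael* and −0.34 with *Sycp3*. These are descriptions over 11 points that share libraries, depth and genotype. Among 13728 genes the patterns most like that of *Ddx4* were those of *Sox3* (0.98), *Ppp3cc* (0.98) and *Mael* itself, and *Mael* was closest to *Ddx4*, *Mmab* (0.98) and *Ppp3cc* (0.98). *Dazl* was closest to *Dpp4* (0.96), *Ilf2* (0.96) and *Pcna-ps2* (0.95), *Sycp3* to *Fitm1* (0.98), *Cbr4* (0.97) and *Agbl5* (0.97), *Taf7l* to *Ccdc122* (0.97), *Pyurf* (0.97) and *Bin1* (0.97), and *Dnd1* to *Irgm1* (0.89), *Trim67* (0.85) and *Tapbpl* (0.85). Of the 5 genes that had both a window and a test, the 4 that rose in every RGd2 exit condition held an E-box in the window shown above, and *Dazl* did not. With 5 genes this is a description of these letters and of nothing that binds them.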

How the data were processed

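RNA was depleted of rRNA and made into strand-specific libraries with ERCC spike-ins. Per the study's methods and the submitters' notes, Trim Galore and TopHat2 were used by the authors to trim reads and align them to GRCm38 plus the ERCC sequences, and featureCounts to count unique primary alignments per Gencode M14 gene by strand. The deposited values are raw counts per gene and library, with gene lengths. FPKM was computed here from these counts and lengths.

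Size factors were medians of ratios over the 52 of 92 ERCC transcripts detected in every library. All 32 libraries entered 1 model with 11 conditions in edgeR 4.0.16 (R 4.3.3), with the filterByExpr filter, two-sided quasi-likelihood tests and Benjamini-Hochberg adjustment over all 18892 genes kept. Genes were called at an adjusted p below 0.05 with a group mean FPKM of 1 or more. Of the germ cell genes, *Asz1* failed the filter. Genes without a symbol (193, 0.0259% of counts) were kept. The scripts were tested on simulated data. The alternatives were TMM, median-of-ratios factors from genes, DESeq2 1.42.0, no low-count filter, no FPKM minimum, a model of only the libraries compared, the clonal line as a replicate block, 2i-p5 as baseline, each library left out, and FPKM scaled by the spike-ins. The pairing for the block comes from the clonal lines that the labels name in several conditions of a genotype (RGd2, *Rbpj*-KO, *Etv5*-KO). Mutants and RGd2 are not paired.

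The named genes are the 7 members, the genes with the most similar patterns and, per list, up to 3 called genes in each direction by size of change. The members and lists were chosen with earlier results of these data known. The labels and the study's methods differ on which N16h group has fewer libraries: the labels, followed here, give 3 for RGd2 and 2 for *Etv5*-KO. Nothing says whether the parental RGd2 libraries of a condition came from separate cultures beyond their being called biological replicates, so their p-values measure the spread between these samples.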

Additional observations from a re-analysis of the deposited data

Results flagged for a closer look

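The response to 16 h in N2B27 differed between *Etv5*-KO and RGd2 cells for 3 of 6 genes by the test of the difference itself. Among 12246 genes, 36.7% were called higher and 0.531% lower, so this count does not set the germ cell genes apart from all genes. On the log2 scale the *Etv5*-KO response exceeded that of RGd2 by 1.05 for *Mael*, 1.04 for *Dnd1* and 0.68 for *Ddx4* with spike-in scaling. *Mael* and *Ddx4* rose in both genotypes, from lower counts in *Etv5*-KO 2i, whereas *Dnd1* was called lower at N16h in RGd2 and higher in *Etv5*-KO. Neither *Dnd1* call held with TMM by edgeR's test (adjusted p = 0.222 in RGd2 and 0.300 in *Etv5*-KO). Each was also lost when certain single libraries were left out. The median over all genes was 0.47 in the same direction, and with TMM scaling the differences of *Mael* (adjusted p = 0.104), *Dnd1* (adjusted p = 0.201) and *Ddx4* (adjusted p = 0.664) did not pass edgeR's test. The *Ddx4* call was lost in 9 of the 11 fits that left out 1 library.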

How the results depend on the processing

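The number of germ cell genes called moved by less than 1.5 times under every alternative run for RGd2 N16h, N72h and CHp2 against 2i, for ER-dKO against 2i-p5 and CHp2, for ETR-tKO against N72h and ER-dKO, and for *Rbpj*-KO at N16h against 2i. DESeq2 changed none of 102 calls, and the clonal line as a replicate block, which could be fitted for the 6 comparisons between conditions of RGd2, *Rbpj*-KO or *Etv5*-KO that share lines, changed none of 36 (the counts stayed 5 at N16h, 6 at N72h, 6 in CHp2, 2 in 2i-p5, 4 in *Rbpj*-KO and 6 in *Etv5*-KO). With TMM the count became 4 in 2i-p5 against 2i, 1 in *Rbpj*-KO at N16h, 3 in *Etv5*-KO in 2i, 3 in *Etv5*-KO at N16h, 4 in ETR-tKO against 2i-p5 and 0 for the *Etv5*-KO difference in response. Median-of-ratios factors gave 1, 3, 4 and 0 for *Rbpj*-KO at N16h, *Etv5*-KO at N16h, ETR-tKO and that difference. TMM and these factors assume that most genes do not change, while the spike-ins do not. Spike-in scaling instead takes the amount of spike-in per RNA as equal across libraries, which was not tested. Spike-in reads made up 0.991% to 1.39% of the counts within the RGd2 2i libraries. With only the libraries compared in the model the count was 1 in 2i-p5, 1 in *Rbpj*-KO in 2i, 2 in *Rbpj*-KO at N16h, 3 in *Etv5*-KO in 2i and 3 in *Etv5*-KO at N16h, and the cause was not tested. With 1 library left out, the lowest and highest counts were 1 and 2 in 2i-p5, 1 and 3 in *Rbpj*-KO in 2i, 3 and 5 in *Etv5*-KO in 2i, 0 and 1 in *Etv5*-KO at N16h, 3 and 6 for *Etv5*-KO at N16h against 2i, and 0 and 1 for the *Rbpj*-KO difference in response. The libraries behind these ranges are named in the report. Directions reversed only for values that were not called. For *Ddx4* in 2i-p5 the change was 0.056 with TMM and 0.060 with median-of-ratios factors, for *Dazl* in *Rbpj*-KO at N16h −0.011 and −0.0048, and for *Dazl* in ETR-tKO against ER-dKO −0.0029 with TMM. With 1 library left out, values crossed 0 for *Dazl* at N16h (−0.21 to 0.26), *Mael* in 2i-p5 (−0.058 to 0.34), *Sycp3* (−0.083 to 0.25) and *Dazl* (−0.39 to 0.075) in *Rbpj*-KO in 2i, *Dnd1* in *Rbpj*-KO at N16h (−0.19 to 0.011), *Mael* (−0.18 to 0.14) and *Dnd1* (−0.25 to 0.10) in *Etv5*-KO at N16h, *Dazl* (−0.034 to 0.10) and *Taf7l* (−0.18 to 0.60) in ETR-tKO against ER-dKO, and *Mael* (−0.16 to 0.12) and *Taf7l* (−0.081 to 0.63) in the *Rbpj*-KO difference in response. *Asz1* had at most 12 counts in a library, at 0 in 12 of 32, and *Taf7l* as few as 7.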
